A study of Mus musculus with 16 samples.

Results

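Tspan5, the tetraspanin gene with one of the smallest p-values between the genotypes of this study, was examined with 8 other tetraspanin genes, Tspan3, Tspan14, Tspan15, Tspan17, Cd9, Cd63, Cd81 and Cd82, and with Adam10. These are 10 of the 35682 genes in the deposited count table, and all 10 were found there by symbol. Tspan5 was chosen by its difference between genotypes, so that difference, and any call made on it, is given below as a description and supports nothing. The other 9 genes were chosen by family or by their known link to Adam10, with results of these data already known.

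RNA was sequenced from ventricular myocytes of 16 mice: 8 had the transgene of the line B3AR-Tg, whose name refers to the beta-3 adrenergic receptor, and 8 were their wild-type (WT) littermates. Every animal of both genotypes had undergone TAC (transverse aortic constriction, in which a band around the aorta makes the left ventricle pump against a higher pressure) and was sampled 9 weeks later, so no group without surgery enters any comparison. Myocytes were freed by Langendorff perfusion and kept on plates for 1 hour, and stranded total RNA libraries were made from 500 ng of RNA after removal of ribosomal RNA. The labels give neither the promoter and source species of the transgene nor the age and sex of the animals. The comparison asks how expression differed with the transgene under pressure overload.

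Tetraspanins are small proteins that cross the membrane several times and gather integrins, immunoglobulin-family proteins and proteases into patches of the plasma membrane, endosomes and extracellular vesicles. The TspanC8 subfamily, Tspan5, Tspan10, Tspan14, Tspan15, Tspan17 and Tspan33, binds the metalloprotease Adam10, helps it leave the endoplasmic reticulum and influences which substrates it cuts. Adam10 sheds the outer parts of many surface proteins, among them Notch receptors, N-cadherin and the amyloid precursor protein.

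Libraries held between 5985335 and 14365864 counts, 14070 to 15713 genes with at least 1 count, and 18.8% to 27.5% mitochondrial counts, and no pair of libraries of the same genotype agreed within sampling noise. Levels below are CPM, counts relative to the library total, scaled with TMM factors, and a floor of 3 counts corresponds to 0.201 to 0.487 CPM across libraries, for counting error only. Mouse Adrb3, the gene of the beta-3 receptor, held 0 to 4 counts in WT and 0 to 3 in B3AR-Tg and was not tested, so it did not check the genotype labels. Over all 10945 tested genes the median log2 fold change (B3AR-Tg minus WT) was 0.006. Myocyte markers exceeded those of every other cell type in every library: the summed level of 8 of 8 markers was 37623 to 46643 CPM in WT, against 42496 to 49146 in B3AR-Tg. Of the 8, Ryr2 alone passed the edgeR test, as higher (log2 fold change 0.46, edgeR adjusted p = 0.0359). RNA of other cells was also present. Fibroblast markers, 7 of 8 tested, summed to 45.9 to 190 CPM in WT (median 103) against 12.0 to 65.1 in B3AR-Tg (median 28.8), and 5 of the 7 passed the edgeR test (adjusted p under 0.05) as lower. Endothelial markers, 8 of 8 tested and 2 lower, summed to 86.1 to 128 CPM in WT, against 40.5 to 155 in B3AR-Tg. Mural markers, 7 of 8 tested and 0 past the threshold, summed to 90.6 to 165 CPM and 48.6 to 145 CPM, and leukocyte markers, 2 of 8 tested and 0 past it, to 4.63 to 16.7 CPM and 1.24 to 6.96 CPM. Fitted log2 fold changes lay below 0 for 6 of the 7 tested mural and 2 of the 2 tested leukocyte markers. Over all tested genes 2.88% were called lower and 2.03% higher. Of the 4 Schwann cell and 4 mesothelial markers none reached the level for testing. The load-responsive genes Nppa, Nppb, Myh7, Acta1, Ankrd1 and Xirp2, 6 of 6 lower, summed to 7848 to 25727 CPM in WT, against 3798 to 10528 in B3AR-Tg. In RNA from a whole preparation, fewer cells of a type and less RNA per cell cannot be told apart.

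Because TspanC8 genes are relatives, their sequences were compared first. Coding sequences of Tspan5 and Tspan17, the nearest pair among those compared, were 72.6% identical over 803 aligned bases, and those of Tspan5 and Tspan14 67.7% identical over 747. The longest exact run that Tspan5 and Tspan17 share is 21 bases, in exon 7 of 8 of both genes. It is shown in capitals within 61 bases of the reference (GRCm38, coding strand, 5′ to 3′), Tspan5 at chr3:138898291-138898351 and Tspan17 at chr13:54795990-54796050, both on the plus strand, since reads shorter than such a run could not be given to a single gene of the pair.
Tspan5 exon 7: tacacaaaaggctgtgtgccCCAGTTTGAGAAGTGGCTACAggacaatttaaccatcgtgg
Tspan17 exon 7: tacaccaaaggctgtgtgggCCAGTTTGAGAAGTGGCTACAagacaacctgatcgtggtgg
Differences on both sides of the run tell the pair apart within these 61 bases. Cd9 and Cd81 share a run of 22 bases, and their coding sequences were 65.9% identical over 317 aligned bases. Near-identical copies were found for Cd63 and Cd9: the pseudogene Cd63-ps was 98.9% identical over 714 coding bases and held 4 counts in all libraries together against 2489 for Cd63, and Cd9-ps was 90.6% identical over 661 and held 0 counts against 348 for Cd9. How reads that fit several genes were shared out is not given in the sources used here, so the values of Cd63 and Cd9 are uncertain to that extent.

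The windows around the start sites of Tspan5 and Tspan17 (RefSeq, GRCm38.p6, 250 bases before to 50 after the start, plus strand) are shown because Tspan17 was, of the 8 other tested genes, the one whose level varied most like that of Tspan5 between animals. Capitals mark the GC box GGGCGG, searched on both strands, which stood in 35.7% of 32851 such windows of the genome. Tspan5 lies at chr3:138741958-138742257 and Tspan17 at chr13:54789155-54789454.
Tspan5 start window: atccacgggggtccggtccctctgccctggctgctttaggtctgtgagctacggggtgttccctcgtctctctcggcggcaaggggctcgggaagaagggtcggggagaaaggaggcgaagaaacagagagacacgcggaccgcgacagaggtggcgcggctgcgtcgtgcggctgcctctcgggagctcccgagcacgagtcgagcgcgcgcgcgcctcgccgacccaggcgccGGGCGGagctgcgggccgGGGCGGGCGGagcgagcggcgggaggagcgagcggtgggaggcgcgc
Tspan17 start window: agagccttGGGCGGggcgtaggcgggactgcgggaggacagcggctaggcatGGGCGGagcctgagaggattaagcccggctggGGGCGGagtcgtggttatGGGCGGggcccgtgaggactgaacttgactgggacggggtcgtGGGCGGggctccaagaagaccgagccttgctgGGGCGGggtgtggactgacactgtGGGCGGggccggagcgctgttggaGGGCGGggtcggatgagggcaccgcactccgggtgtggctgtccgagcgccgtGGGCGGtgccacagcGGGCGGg
The Tspan5 window had a GC content of 73.3%, 43 CpG and 3 GC boxes, of which a pair overlap, and the Tspan17 window had 72.0%, 29 CpG and 10 GC boxes. Medians over all windows were 52.7% GC and 7 CpG. Neither window held the letters TGACG (20.8% of all windows), CACGTG (7.15%) or TATAAA (13.6%) on either strand. These matches describe the windows only.

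Tspan5 RNA was 2.81-fold lower in B3AR-Tg than in WT myocytes. The gene (ENSMUSG00000028152, chromosome 3, 138742195 to 138907905, plus strand, GENCODE M21 on GRCm38 as for all positions of genes below) was read at 36 to 121 counts per WT library and 20 to 67 counts per B3AR-Tg library. WT replicates 1 to 8 had 10.2, 10.3, 4.27, 9.91, 11.2, 7.80, 9.51 and 9.33 CPM. B3AR-Tg replicates 1 to 8 had 3.01, 2.30, 3.44, 3.25, 2.30, 3.13, 5.22 and 3.05 CPM. All WT animals but replicate 3 lay above all B3AR-Tg animals, and the groups overlapped only where WT replicate 3 fell below B3AR-Tg replicate 7. Means were 9.07 ± 2.17 CPM in WT against 3.21 ± 0.912 in B3AR-Tg (SD, n = 8), and the fitted log2 fold change was -1.49 (SE 0.19). Without WT replicate 3 the log2 fold change was -1.60, and without B3AR-Tg replicate 7 it was -1.64.

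Tspan5 moved in the same direction as the fibroblast and load-responsive genes above. With the score of fibroblast, endothelial, mural and leukocyte markers as a covariate, the log2 fold change of Tspan5 was -1.10 and no longer passed the threshold, in a fit that called 18 genes of the whole table against 537 without the covariate. When single animals were left out, the log2 fold change was -1.64 to -1.43. A contribution of the other cells to the Tspan5 difference was not tested beyond this fit.

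**Figure D1:**
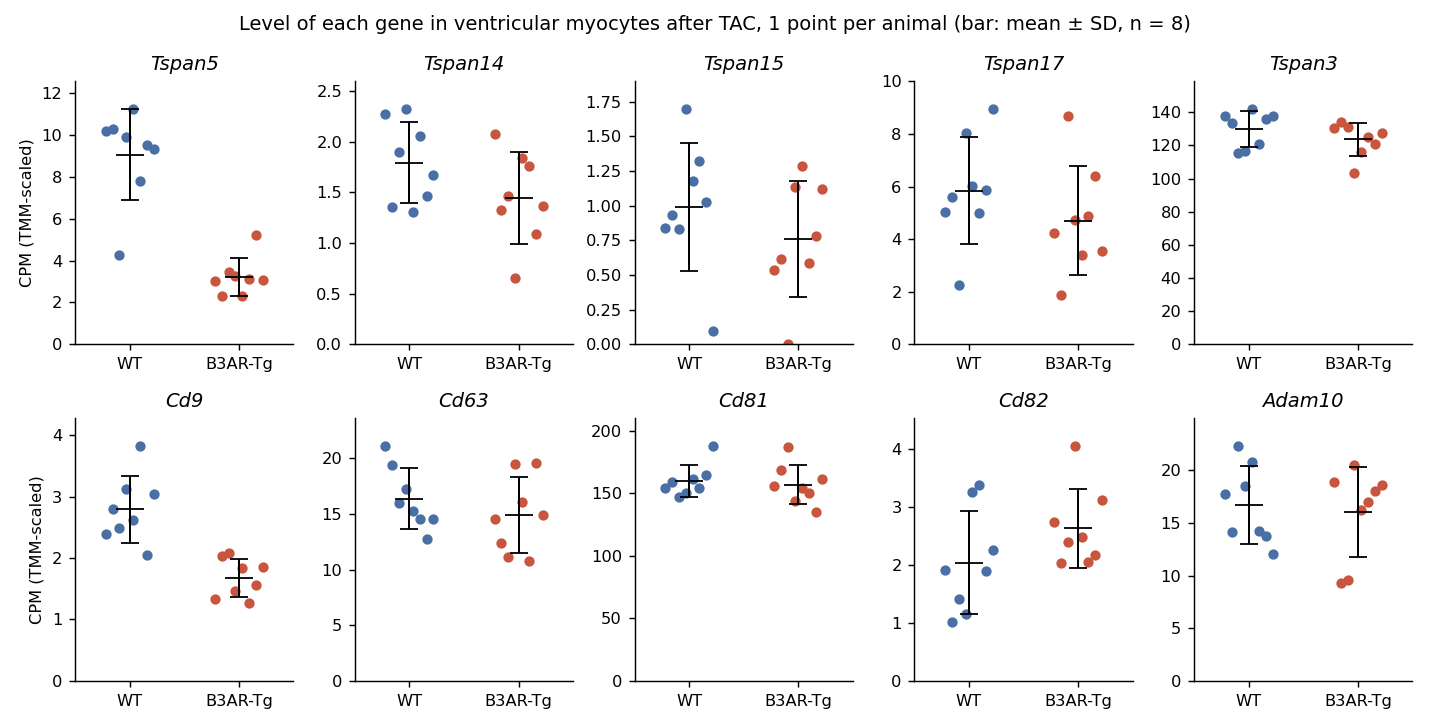
Level of each of the 10 genes (TMM-scaled CPM, linear axis from 0) in the 8 WT and 8 B3AR-Tg animals; points are animals, bars the mean and SD. Tspan5 spans 4.27 to 11.2 CPM in WT, against 2.30 to 5.22 in B3AR-Tg, while Tspan3, Cd63, Cd81 and Adam10 overlap between the groups over most of their range.

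Of the 10 genes, 9 passed the low-count filter, Tspan15 being the exception. In edgeR's quasi-likelihood F test with Benjamini-Hochberg adjustment over all tested genes (threshold 0.05), Tspan5 and Cd9 were called lower and 0 higher, where over all tested genes 4.91% of genes were called, 2.88% lower and 2.03% higher. Over all genes there were 315 lower and 222 higher calls, and with library totals as the only scaling 165 lower and 346 higher. DESeq2 and limma voom, run on the same libraries, also called Tspan5 and Cd9 and no other of the 10 genes. Because Tspan5 was chosen in this contrast and the others with its results known, nothing is read from that count or from its return with other tools. Fitted differences lay below 0 for 8 of the 9 tested genes, of which 3, Tspan3, Cd81 and Adam10, turned positive with library totals as the only scaling. Their median log2 fold change was -0.15, against 0.006 over all tested genes. For none of the 9 were the groups without overlap, which was so for 0.448% of all tested genes.

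The other TspanC8 genes did not pass the test. Tspan17 (ENSMUSG00000025875, chromosome 13, 54789377 to 54796776, plus strand), the nearest relative of Tspan5, was at 2.25, 5.73 and 8.94 CPM in WT, against 1.85, 4.46 and 8.66 in B3AR-Tg (lowest, median and highest of 8). The ranges covered each other almost fully. Its log2 fold change was -0.33 (SE 0.26, 95% interval -0.88 to 0.22, edgeR adjusted p = 0.530), and with the marker covariate it was 0.15. Tspan14 (ENSMUSG00000037824, chromosome 14, 40906445 to 40966807, minus strand), which like Tspan5 carries Adam10 to the cell surface, was at 1.31, 1.78 and 2.32 CPM in WT, against 0.650, 1.41 and 2.08 in B3AR-Tg. The lowest value, from 4 counts in B3AR-Tg replicate 4, was near the floor, and 2 of 8 B3AR-Tg animals lay above the WT median. The log2 fold change of Tspan14 was -0.29 (SE 0.23, interval -0.77 to 0.20, edgeR adjusted p = 0.530).

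Tspan15, the TspanC8 protein tied to the cutting of N-cadherin (ENSMUSG00000037031, chromosome 10, 62185396 to 62231251, minus strand), was too low to be tested, with 1 to 19 counts per WT library and 0 to 14 per B3AR-Tg library. It averaged 0.991 ± 0.462 CPM in WT against 0.758 ± 0.419 in B3AR-Tg, and with no low-count filter its log2 fold change was -0.37 (edgeR adjusted p = 0.694). No difference in Tspan15 was detected in that fit, and its few counts limit what the fit can show. The remaining subfamily members were also untested: Tspan10 had 0 to 3 counts in WT and 0 to 7 in B3AR-Tg, and Tspan33 had 2 to 14 and 1 to 22. Tspan33 averaged 0.638 ± 0.364 CPM in WT against 1.03 ± 0.641 in B3AR-Tg, with 6 of 8 B3AR-Tg animals above the WT median.

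Divided by exon length (7.389 kb for Tspan5, 1.657 kb for Tspan17), Tspan17 was the most abundant TspanC8 RNA in every animal. It was at 3.53 ± 1.22 CPM per kilobase in WT and 2.84 ± 1.25 in B3AR-Tg, against 1.23 ± 0.294 and 0.435 ± 0.123 for Tspan5 (SD, n = 8). Summed over the 6 genes, the level was 5.80 ± 1.37 CPM per kilobase in WT and 4.21 ± 1.30 in B3AR-Tg. Tspan5 made up 21.3% ± 3.12 of this sum in WT (17.1% to 25.0%) and 10.6% ± 2.22 in B3AR-Tg (6.93% to 13.5%), so on this scale no B3AR-Tg animal reached the lowest WT animal. WT replicate 3, low in Tspan5, was low in Tspan17 as well, and the share therefore set it beside the other WT animals. Tspan17 took 59.2% ± 8.26 in WT and 65.3% ± 11.03 in B3AR-Tg, and Tspan14 12.6% ± 5.29 and 13.9% ± 5.61. By counts without division by length, the share of Tspan5 was 48.5% ± 4.64 in WT (42.4% to 54.8%) and 28.4% ± 5.08 in B3AR-Tg (22% to 37.4%). Tspan17 took 30.7% ± 6.53 by counts in WT and 40.0% ± 10.04 in B3AR-Tg. In WT the order of Tspan5 and Tspan17 thus depended on the division by length. The ratio of Tspan5 to Tspan17 per kilobase was 0.367 ± 0.0772 in WT (0.234 to 0.454) and 0.169 ± 0.0538 in B3AR-Tg (0.0892 to 0.278), overlapping in a narrow range. Since Tspan5 was chosen for its difference, these shares and ratios are descriptions.

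**Figure D2:**
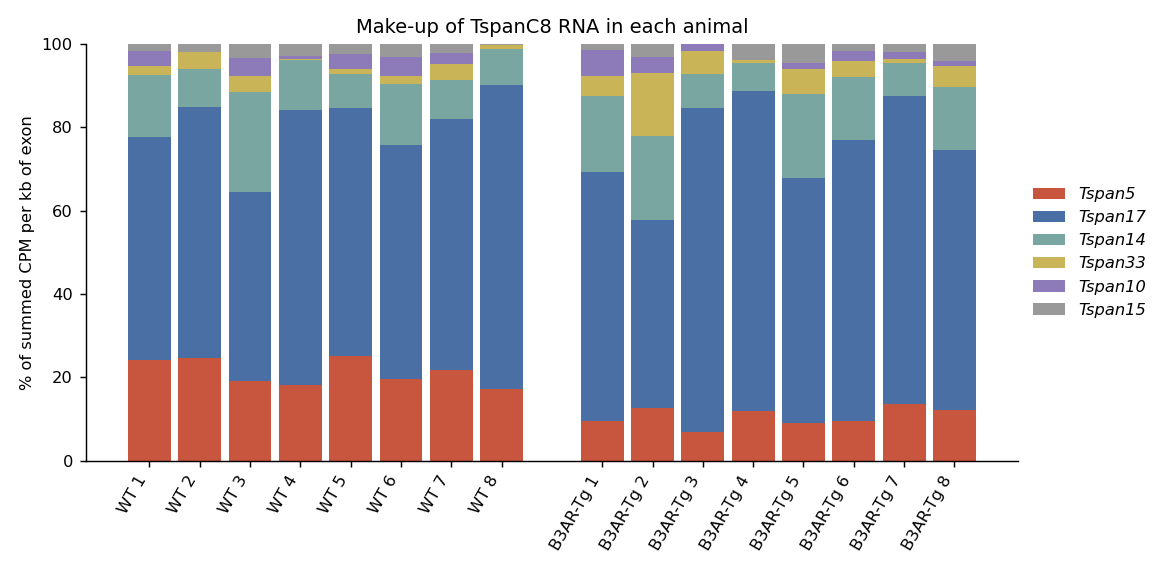
Make-up of TspanC8 RNA in each of the 16 animals: stacked bars give the percent of the summed CPM per kilobase of exon from Tspan5, Tspan17, Tspan14, Tspan33, Tspan10 and Tspan15. Tspan17 is the largest segment of every bar, and the Tspan5 segment is 17.1% to 25.0% in WT and 6.93% to 13.5% in B3AR-Tg.

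Adam10, the protease that the TspanC8 proteins carry, did not pass the test. The gene (ENSMUSG00000054693, chromosome 9, 70678997 to 70780229, plus strand) was at 12.1, 16.01 and 22.3 CPM in WT, against 9.27, 17.5 and 20.5 in B3AR-Tg (lowest, median and highest of 8). B3AR-Tg replicates 2 and 3, at 9.27 and 9.60 CPM, were the lowest animals of all, and the other 6 lay above the WT median. The log2 fold change was -0.06 (SE 0.17, 95% interval -0.41 to 0.29, edgeR adjusted p = 0.886), and it turned to 0.03 when libraries were scaled by their totals only. Tspan5 per Adam10, both per kilobase, was 0.381 ± 0.120 in WT (0.127 to 0.514) and 0.142 ± 0.0519 in B3AR-Tg (0.0939 to 0.238), and the groups overlapped.

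Among tetraspanins outside the TspanC8 subfamily, Cd9 was lower in B3AR-Tg. Cd9 protein (gene ENSMUSG00000030342, chromosome 6, 125460266 to 125494791, minus strand) sits at the cell surface and on extracellular vesicles and is needed on the egg for sperm fusion. WT replicates 1 to 8 were at 2.40, 2.80, 2.49, 3.12, 2.62, 3.82, 2.05 and 3.05 CPM, and B3AR-Tg replicates 1 to 8 at 1.34, 2.03, 2.09, 1.46, 1.84, 1.27, 1.56 and 1.85 CPM. Of the B3AR-Tg animals 7 of 8 lay below the lowest WT animal, replicate 7. Means were 2.79 ± 0.544 and 1.68 ± 0.313 CPM (SD, n = 8), a log2 fold change of -0.73 (SE 0.19, 1.66-fold lower, edgeR adjusted p = 0.0272). The gene rested on 14 to 35 counts per WT library and 9 to 23 per B3AR-Tg library. The call was lost without WT replicate 4 (edgeR adjusted p = 0.0618), WT replicate 6 (0.0516), WT replicate 8 (0.0512) or B3AR-Tg replicate 1 (0.0507), with library totals as the only scaling (0.0546), with no low-count filter (0.0830) and with the marker covariate (log2 fold change -0.97, adjusted p = 0.131). The fall of fibroblast and endothelial markers went with it, and their part in it was not tested beyond that covariate.

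The abundant tetraspanins did not pass the test. Tspan3 (ENSMUSG00000032324, chromosome 9, 56131725 to 56165477, minus strand) was at 115, 135 and 142 CPM in WT, against 103, 126 and 134 in B3AR-Tg (lowest, median and highest of 8). All 8 B3AR-Tg animals lay below the WT median, yet within the WT range but for 1. Cd81 (ENSMUSG00000037706, chromosome 7, 143052739 to 143067934, plus strand), a marker of extracellular vesicles, was at 147, 156 and 188 CPM in WT, against 135, 155 and 187 in B3AR-Tg. Log2 fold changes were -0.07 for Tspan3 (SE 0.07, 95% interval -0.22 to 0.08, edgeR adjusted p = 0.628) and -0.03 for Cd81 (SE 0.07, interval -0.18 to 0.13, adjusted p = 0.897), and both turned positive, to 0.0029 and 0.05, with library totals as the only scaling. These intervals were the narrowest of the 9 tested genes.

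Cd63 and Cd82 did not pass the test either. Cd63 (ENSMUSG00000025351, chromosome 10, 128900989 to 128912822, plus strand), a protein of late endosomes, lysosomes and exosomes, was at 12.7, 15.7 and 21.1 CPM in WT, against 10.8, 14.7 and 19.5 in B3AR-Tg, with a log2 fold change of -0.15 (SE 0.14, interval -0.43 to 0.14, edgeR adjusted p = 0.594). Cd82 (ENSMUSG00000027215, chromosome 2, 93419111 to 93463140, minus strand), known as a suppressor of metastasis, was at 1.02, 1.91 and 3.38 CPM in WT, against 2.03, 2.44 and 4.06 in B3AR-Tg. It was the only tested gene of the 10 with a positive value, 0.38 (SE 0.25, interval -0.15 to 0.91, edgeR adjusted p = 0.439), and all 8 B3AR-Tg animals lay above the WT median.

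**Figure D3:**
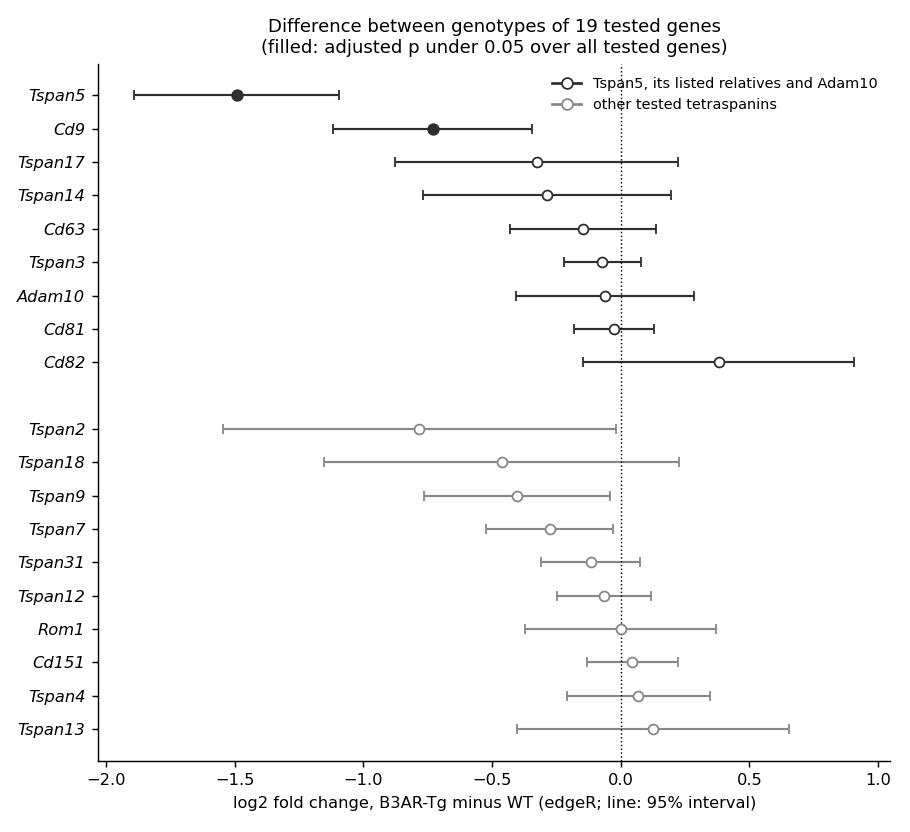
Log2 fold change (B3AR-Tg minus WT, horizontal axis) with its 95% interval for the 9 tested genes among the 10 and for the 10 other tested tetraspanins; filled points have an edgeR adjusted p under 0.05 over all tested genes. Tspan5, at -1.49, and Cd9, at -0.73, are the filled points, and none of the 10 other tetraspanins is filled.

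Per kilobase of exon, the order of levels in WT was Cd81 (55.5 ± 4.41), Tspan3 (30.4 ± 2.48), Cd63 (4.44 ± 0.749), Tspan17 (3.53 ± 1.22), Adam10 (3.40 ± 0.750), Cd9 (1.37 ± 0.266), Tspan5 (1.23 ± 0.294), Cd82 (0.680 ± 0.297) and Tspan14 (0.677 ± 0.153), in CPM per kilobase (SD, n = 8). Tspan10, Tspan33 and Tspan15 followed, between 0.121 and 0.126. Cd81 and Tspan3 stood clear of each other and of the rest in every animal. Cd63, Tspan17 and Adam10 overlapped, and the lowest Tspan17 value (1.36) lay within the ranges of Cd9 and Tspan5. The range of Tspan5 in WT (0.578 to 1.52) overlapped those of Cd9, Cd82 and Tspan14. Cd82 also overlapped Cd9 and Tspan14. In B3AR-Tg, Tspan5 moved from place 7 of these 12 genes to place 9, at 0.435 ± 0.123, behind Cd82 (0.877 ± 0.228), Cd9 (0.821 ± 0.153) and Tspan14 (0.545 ± 0.171). There its range of 0.311 to 0.706 overlapped the ranges of Tspan14, Cd9 and Cd82.

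The wider family showed no call. Of 23 further tetraspanin genes listed, 22 were in the table and 10 were tested, with 0 called in either direction by edgeR, DESeq2 or limma voom, a median log2 fold change of -0.09 and 3 at an unadjusted p under 0.05. These 3 were Tspan2 (-0.78, edgeR adjusted p = 0.249), Tspan9 (-0.40, 0.204) and Tspan7 (-0.28, 0.203), named after their values were seen. Over all tested genes 4.91% were called by edgeR and 19.3% had an unadjusted p under 0.05. Cd151, which anchors laminin-binding integrins, averaged 139 ± 15.99 CPM in WT against 144 ± 15.7 in the carriers (log2 fold change 0.05, edgeR adjusted p = 0.816). Of 8 genes for tetraspanin partners, integrins and the immunoglobulin-family proteins Igsf8 and Ptgfrn among them, 7 were tested and 0 called by any of the 3 tools, with 1 at an unadjusted p under 0.05 and a median of 0.18.

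Metalloproteases related to Adam10 did not pass the test, while Timp3 and Timp4, inhibitors of such proteases, fell. Of 19 genes of the ADAM family and its regulators, 14 were tested, 2 were called lower and 0 higher, 6 had an unadjusted p under 0.05, and the median log2 fold change was -0.20. Over all tested genes 2.88% were called lower, 2.03% were called higher and 19.3% had such a p. Timp3, a matrix-bound inhibitor of metalloproteases including Adam10, was at 31.4, 53.3 and 93.2 CPM in WT, against 12.9, 26.5 and 39.0 in B3AR-Tg (lowest, median and highest), and 6 of 8 B3AR-Tg animals lay below every WT animal. Its log2 fold change was -1.15 (SE 0.21, edgeR adjusted p = 0.00485), and with the marker covariate -0.69 (adjusted p = 0.256). Timp4, an inhibitor made in the heart, went from 6.98 ± 2.75 to 3.42 ± 1.62 CPM (log2 fold change -1.05, SE 0.29, edgeR adjusted p = 0.0376). That call was lost in 13 of 25 alternatives. Adam17, a sheddase that shares substrates with Adam10, had a log2 fold change of 0.11 (edgeR adjusted p = 0.447) and Adam9 of -0.23 (0.374).

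Known substrates of Adam10 had a median log2 fold change of -0.35, against 0.006 over all tested genes. Of 27 listed, 20 were tested, 2 were called lower and 0 higher, and 11 had an unadjusted p under 0.05, as had 2117 of the 10945 tested genes of the whole table (19.3%). Vcam1, which binds leukocytes to activated endothelium, had a log2 fold change of -1.94 (SE 0.54, edgeR adjusted p = 0.0398) that leaned on WT replicate 8, at 42.6 CPM against 8.93 in the next WT animal. Without that animal it was -1.01 and was not called. Axl, a receptor tyrosine kinase for Gas6, went from 5.47 ± 1.62 to 2.65 ± 1.24 CPM (log2 fold change -1.05, SE 0.29, edgeR adjusted p = 0.0413) and was at 0.03 with the marker covariate. Substrates that did not pass the test had log2 fold changes of -0.79 for Notch1 (edgeR adjusted p = 0.138), 0.24 for Notch2 (0.485), 0.20 for Cdh2, the N-cadherin of intercalated discs (0.161), and -0.73 for App (0.0800). Cdh2 was called higher by limma voom, and App lower by DESeq2. Both of these tools also called Aplp2 and Lrp1 lower, and limma voom called Cdh5 lower.

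For the Notch and vesicle lists, shares over all tested genes were 2.88% called lower, 2.03% called higher and 19.3% at an unadjusted p under 0.05. Of 16 genes for Notch processing and Notch targets, 14 were tested and 1 was called lower, with 0 higher, 2 at an unadjusted p under 0.05 and a median of 0.03. This was Hey1, a transcriptional repressor switched on by Notch, at 0.392, 2.11 and 5.61 CPM in WT, against 0.177, 1.11 and 1.95 in B3AR-Tg (log2 fold change -1.46, SE 0.41, edgeR adjusted p = 0.0422). Hey1 had 3 to 66 counts per WT library and 2 to 18 per B3AR-Tg library. Other targets did not pass: Hes1 was at -0.18 (edgeR adjusted p = 0.508) and Hey2 at 0.31 (0.702). All 13 listed vesicle genes were tested, 2 were called lower and 0 higher, with 3 at an unadjusted p under 0.05 and a median of -0.07. Rab27a, a GTPase for the docking of exosome-bearing endosomes, fell by 1.24 on the log2 scale (SE 0.31, edgeR adjusted p = 0.0249), from 1.61 ± 0.520 to 0.657 ± 0.321 CPM. Rab27a had only 10 to 18 counts per WT library and 2 to 12 per B3AR-Tg library, the lowest of them below the floor of 3 counts. Sdcbp, the adaptor syntenin of exosome formation, fell by 0.29 (SE 0.08, edgeR adjusted p = 0.0362), from 103 ± 9.94 to 84.0 ± 8.42 CPM, with 7 of 8 B3AR-Tg animals below every WT animal.

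In all, 7 of the 78 tested genes of these lists (8.97%) were called by edgeR, where 4.91% of all tested genes were called and 2.88% called lower. They were Timp3, Timp4, Vcam1, Axl, Hey1, Rab27a and Sdcbp, and all 7 lay lower in B3AR-Tg. The lists were chosen with earlier results known, and nothing particular to them is read from that share. DESeq2 called these 7 and 4 more, all 4 lower. Limma voom called 9 genes of these lists. Among them were all of the 7 but Vcam1 (limma voom adjusted p = 0.0631) and Hey1 (0.122). The others it called were Aplp2, Cdh5 and Lrp1, lower, and Cdh2, higher. With the marker covariate 0 of the 7 were called, in a fit that called 18 genes of the whole table. There the log2 fold changes of Rab27a (-1.49) and Sdcbp (-0.35) lay farther from 0 than without the covariate. Those of Timp3 (-0.69), Timp4 (-0.71), Vcam1 (-0.86), Hey1 (-0.18) and Axl (0.03) lay nearer 0. Over all alternatives, the call was lost in 1 of 25 for Timp3, 12 of 25 for Vcam1, 14 of 24 for Hey1, 12 of 24 for Axl, 5 of 23 for Rab27a and 11 of 25 for Sdcbp. Fibroblast markers, 5 of 7 tested members lower, and the endothelial markers Pecam1 and Emcn moved in the same direction, and their part in these calls was not tested beyond that covariate. Axl, Vcam1, Timp3 and Hey1 are also made by fibroblasts or endothelial cells.

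Variation between animals of a genotype is not the difference that chose Tspan5, although the spread within genotypes enters the p-value of that choice. On log2 CPM (prior count 2), Tspan5 was related to the 8 other tested genes and to 5 marker scores within each genotype, 26 relations in all, by exact two-sided permutation of the 40320 pairings of 8 animals. After Benjamini-Hochberg adjustment 0 of the 26 passed 0.05, the smallest adjusted p being 0.135 and the next 0.283, with 3 under an unadjusted p of 0.05 by Pearson's r and 1 by Spearman's rho. With Tspan17, Pearson's r was 0.828 in WT (exact p = 0.0545, Spearman's rho 0.381, exact p = 0.360) and 0.736 in B3AR-Tg (exact p = 0.0464, rho 0.905, exact p = 0.00456), with an adjusted p of 0.283 for each r. Without the 2 animals farthest from the median of Tspan17, r was 0.328 in WT and 0.901 in B3AR-Tg. The WT value thus rested on those animals, WT replicate 3, low in both genes, and WT replicate 8.

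Between Tspan5 and Adam10 no relation passed the test within a genotype, with r = -0.371 in WT (exact p = 0.425, rho 0.0476, exact p = 0.935) and r = 0.306 in B3AR-Tg (exact p = 0.442, rho 0.238, exact p = 0.582). WT replicate 3, lowest in Tspan5, was the highest of all 16 animals in Adam10, at 22.3 CPM. Without the 2 WT animals farthest from the median of Adam10, WT replicates 3 and 8, r was 0.627, and without B3AR-Tg replicates 2 and 3 it was 0.288. With Tspan3, r was 0.691 in WT (exact p = 0.0251, adjusted p = 0.283, rho 0.571, exact p = 0.151) and -0.128 in B3AR-Tg (exact p = 0.725, rho -0.167, exact p = 0.703). Without the 2 animals farthest from the median of Tspan3, these were 0.888 and -0.842, of opposite sign. With Cd9, the other gene called, r was -0.0013 in WT (exact p = 0.998, rho -0.167, exact p = 0.703) and -0.303 in B3AR-Tg (exact p = 0.496, rho -0.0476, exact p = 0.935), and 0.326 and -0.514 without the farthest animals.

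Among the marker scores, the fibroblast score had r = 0.894 with Tspan5 in B3AR-Tg (exact p = 0.00521, adjusted p = 0.135, rho 0.667, exact p = 0.0831) and 0.372 in WT (exact p = 0.346, rho 0.238, exact p = 0.582). Without the 2 B3AR-Tg animals farthest from the median of that score, replicates 2 and 7, r was 0.769 (exact p = 0.125), and in WT it was 0.341. B3AR-Tg replicate 7, highest of its group in Tspan5, was also highest in the fibroblast score, at 0.32 in log2 units. WT replicate 3, lowest of its group in Tspan5 at 4.27 CPM, had a fibroblast score of 0.41, above those of WT replicates 5 (0.25) and 6 (-0.39), which held 11.2 and 7.80 CPM of Tspan5. The load score had r = 0.513 in WT (exact p = 0.180, rho 0.524, exact p = 0.197) and 0.727 in B3AR-Tg (exact p = 0.0501, adjusted p = 0.283, rho 0.5, exact p = 0.216), and 0.480 and 0.427 without the farthest animals. WT replicate 3 was also lowest of its group in the load score, at 0.03, and B3AR-Tg replicate 7 highest of its group, at 0.28.

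**Figure D4:**
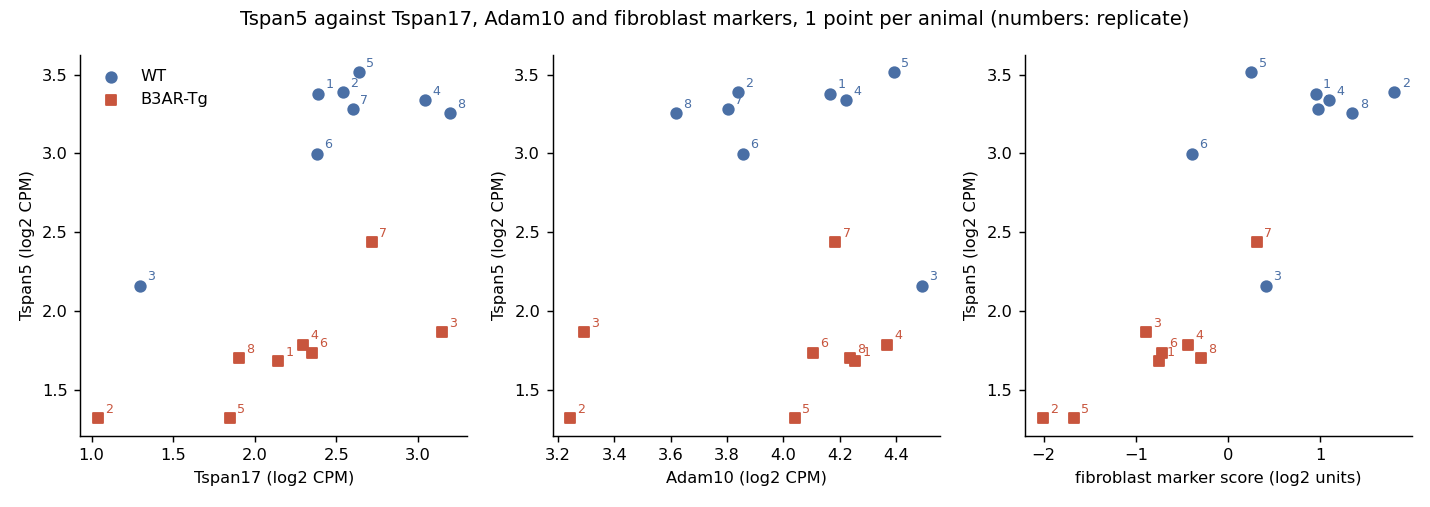
Tspan5 (log2 CPM, vertical axis) against Tspan17 (log2 CPM), Adam10 (log2 CPM) and the fibroblast marker score (log2 units) in 8 WT animals (circles) and 8 B3AR-Tg animals (squares), numbered by replicate. WT replicate 3 lies apart from the other WT animals, low in Tspan5 and Tspan17 and high in Adam10, and B3AR-Tg replicate 7 is the highest of its group in Tspan5.

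The genes whose levels varied most like those of Tspan5 were found by the mean of Pearson's r in the 8 WT and in the 8 B3AR-Tg animals, over 10944 tested genes and with no test. Zfp821 (mean r 0.894), Sms, which makes spermine (0.867), Septin6, a filament-forming GTPase (0.826), Scamp5, a protein of secretory membranes (0.813), and Ccdc136 (0.803) came first. None of these 5 was called between genotypes by edgeR. Over all tested genes 4.91% were called, so nothing is read from that count. Tspan17 was at place 8, with a mean r of 0.782. At the other end were Rbm12 (-0.913), Dynlt2a2 (-0.824), the olfactory receptor gene Olfr539 (-0.812), the splicing factor Tra2b (-0.786) and Bloc1s1, a subunit of a complex for lysosome-related organelles (-0.784). With 8 animals per genotype, this order describes these animals only.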

How the data were processed

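The authors deposited whole-number counts per gene, 1 column per animal, with no normalization. Per the submitters' processing notes, Salmon and GRCm39 were used; their roles, the annotation, the strand setting and the treatment of reads that fit several genes are not given in the sources used here. Every column was matched to an animal by the name in its title, and genotype came from the labels. The labels call the animals biological replicates.

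Counts as deposited entered edgeR 4.0.16 in R 4.3.3 (glmQLFit and glmQLFTest), genotype only, all 16 libraries, TMM factors, after filterByExpr (minimum count 10, minimum total 15). This left 10945 genes, over which p-values were adjusted (Benjamini-Hochberg, two-sided, threshold 0.05). Standard errors are the log2 fold change over the square root of F. Alternatives were other scalings and filters, DESeq2 1.42.0, limma 3.58.1 (voom with sample weights), a covariate for markers of other cells, a replicate block, another threshold and removal of each library. Marker scores are means of log2 CPM (prior count 2) less each gene's mean. Exact permutations used numpy 2.4.6, with ranks and their Benjamini-Hochberg adjustment from scipy 1.17.1.

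Positions and exon lengths are from GENCODE M21 (GRCm38), matched by gene ID, and start windows from RefSeq (GRCm38.p6), where all 10 genes matched by symbol; coding sequences were compared with BLAST 2.17.0. CPM per kilobase divides by the union of a gene's annotated exons.

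The 10 genes, the related lists and the tests were chosen with earlier results of these data known. Named were the 10 genes, up to 6 called genes per related list, 13 genes given in any case, and the 5 genes most and least like Tspan5. Not every gene this rule covers is reported here. On simulated counts edgeR recovered 85.5% of 200 genes changed by a log2 of 1 (3.93% of calls false, 10864 genes) and 29.5% of those changed by 0.5 (9.23% false, 10819 genes), and called 0 of 10863 where none was changed.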

Additional observations from a re-analysis of the deposited data

Results flagged for a closer look

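Single animals at the end of their group, by Dixon's ratio on log2(CPM + 0.1), were searched for in 64 groups of 8 animals (32 genes and scores in each genotype). The gap to the nearest animal, as a share of the group's range, exceeded the 95% critical value in 8 groups, where chance flags about 1 in 20, or 3.2 of 64.

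Of the 8, 4 lay in the TspanC8 genes. Tspan5 in WT replicate 3 was 4.27 CPM, against 7.80 in the next and 11.2 in the highest WT animal (ratio 0.62). The same animal was lowest in Tspan17, at 2.25 CPM against 5.00 and 8.94 (ratio 0.575). Tspan15 was lowest in WT replicate 8, at 0.0982 CPM from 1 count against 0.830 in the next animal (ratio 0.702), and in B3AR-Tg replicate 3, at 0 counts against 0.536 CPM in the next (ratio 0.704). The 2 Tspan15 values lie below the floor of 3 counts.

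WT replicate 8 was highest of its group in Cd81, at 188 CPM against 165 in the next (ratio 0.536), in Vcam1, at 42.6 against 8.93 CPM (ratio 0.534), and in Hes1, at 40.9 against 31.4 CPM (ratio 0.575). App was highest in B3AR-Tg replicate 4, at 20.6 against 13.3 CPM (ratio 0.545).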

How the results depend on the processing

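The log2 fold change of Tspan5, a description here, was -1.64 to -1.10 over the alternatives, and Cd9 was called in 16 of 24. Of the 10 genes 2 were called; 1 was called with library totals as the only scaling, with no low-count filter and with the replicate block, 1 with at least 10 counts in every library, where Cd9 was not tested, 0 with the marker covariate, and 1 to 2 when single libraries were left out. Of the related genes 7 were called, against 11 at an adjusted p under 0.1, 2 with library totals only, 4 with at least 10 counts in every library, 11 with DESeq2, 0 with the covariate, 1 with the replicate block, and 1 (without B3AR-Tg replicate 5) to 11 (without B3AR-Tg replicate 4), with 2 to 4 without WT replicates 1, 2, 4 or 8 or B3AR-Tg replicates 2, 6 or 8. Of all tested genes 537 were called, against 908 at an adjusted p under 0.1, 804 with DESeq2, 706 with limma voom, 18 with the covariate and 230 with the replicate block. Leaving out single libraries gave 272 (without WT replicate 4) to 675 (without WT replicate 3), with 277 without B3AR-Tg replicate 5 and 345 without B3AR-Tg replicate 8. The cause of these shifts was not tested. None of the 26 relations of Tspan5 passed in any alternative.

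Signs turned in 13 cases. With library totals only, Tspan3 was at 0.0029, Cd81 at 0.049 and Adam10 at 0.030. With the covariate, Tspan17 was at 0.15, Cd63 at 0.12, Adam10 at 0.26, Axl at 0.033 and Cd151 at -0.080. Leaving out single libraries gave Adam10 -0.12 to 0.025 and Cd81 -0.064 to 0.011: Adam10 was at 0.010 without WT replicate 3, 0.025 without B3AR-Tg replicate 2 and 0.019 without B3AR-Tg replicate 3, and Cd81 at 0.011 without WT replicate 8 and 0.0042 without B3AR-Tg replicate 7.

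The replicate numbers paired no animals: deviations of same-numbered animals correlated at -0.219 to 0.0935, 0 of 8 numbers over 0.1 and 0 of 8 closest to their own number. With the replicate block Cd9 had a log2 fold change of -0.72 (edgeR adjusted p = 0.110). Few counts limit Tspan14, Tspan15, Tspan10, Tspan33, Cd9, Cd82, Hey1 and Rab27a.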
